A study of Mus musculus with 11 samples.

Results

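miR-10a and miR-10b are a pair of microRNAs encoded inside the Hox gene clusters. They were followed here as mmu-miR-10a-5p, mmu-miR-10a-3p and mmu-miR-10b-5p, which were 3 of the 2008 distinct rows of a mouse small RNA count table with 2128 deposited rows. The rows were taken by name. They were chosen by their measured difference between the T cell subsets in these same libraries, so the subset values of the members are given as a description, with no test. Both 5p members passed the filter on low counts together with 543 other rows, and miR-10a-3p did not.

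The libraries came from mouse splenic CD8+ T cells enriched with CD8a microbeads and sorted as CD4-, CD8+, CD49dlo and GFP+, with 10000 cells a library and a purity above 95%. Cells sorted as CD44hi were named stamped VM, for virtual memory, a memory-like phenotype reached without foreign antigen. Cells sorted as CD44lo were named stamped TN, for true naive. Small RNA of 18 to 35 bp was sequenced from 60 to 100 ng of total RNA. The groups were Dirty_VM, stamped VM cells of mice labelled dirty (3 libraries), Dirty_TN, stamped TN cells of mice labelled dirty (3 libraries), Clean_VM, stamped VM cells of mice labelled clean (3 libraries), and Clean_TN, stamped TN cells of mice labelled clean (2 libraries, replicates 2 and 3). The labels define neither dirty, clean nor stamped. They give no strain, sex or age and do not say what drives GFP. Nothing in them says that replicates were separate animals, so p-values measure the spread between these libraries, which may be technical.

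A microRNA is cut from a hairpin, and 1 of the hairpin's arms usually becomes the guide strand of an Argonaute protein, where bases 2 to 8 of its 5′ end, the seed, pair with messenger RNAs. The mir-10 genes sit among the Hox genes, whose expression sets position along the body axis, and members of the family target Hox messages. In T cells, miR-10a is best known from CD4+ regulatory T cells, where retinoic acid and TGF-beta induce it and it targets Bcl6. Those roles were described in other cells than the CD8+ subsets measured here.

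The mature sequences are shown because the paired members share a seed and are nearly one sequence, which bears on how their reads could be counted. They are RefSeq sequences from GRCm38.p6, written 5′ to 3′, with the seed in capitals.
miR-10a-5p: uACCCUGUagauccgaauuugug
miR-10b-5p: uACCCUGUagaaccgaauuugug
miR-10a-3p: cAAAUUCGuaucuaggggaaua
miR-10b-3p: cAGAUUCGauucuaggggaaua
miR-99a-5p: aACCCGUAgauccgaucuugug
miR-100-5p: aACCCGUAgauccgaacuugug
Both 5p members differ at 1 of 23 bases, U12A, with positions counted from 1 at the 5′ end of miR-10a-5p and the base of miR-10a-5p given first. The seed ACCCUGU occurs in these 2 of the 1679 mature names in the RefSeq table and in no other. miR-99a-5p and miR-100-5p belong to the same wider hairpin family but carry another seed. Of the other mature sequences in that table, miR-100-5p was nearest, at an edit distance of 3 from miR-10a-5p and 4 from miR-10b-5p. The 3p arms of both hairpins differ at 3 bases.

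The hairpin of miR-10a lies at chr11:96317165-96317274 on the plus strand (GRCm38, mm10), in the Hoxb cluster. In GENCODE M21 it is intergenic, 11044 bases after the end of Hoxb5 and 993 bases before the start of Hoxb4, both on the same strand. Its 5p arm is at chr11:96317186-96317208 and its 3p arm at chr11:96317227-96317248. The hairpin of miR-10b lies at chr2:74726070-74726137 on the plus strand, in the Hoxd cluster, inside introns of Hoxd3 and Hoxd4 on the same strand. Its 5p arm is at chr2:74726074-74726096. The Hox clusters also encode miR-196a-5p, miR-196b-5p and miR-615-3p, and none of these 3 passed the filter, with highest counts of 2, 1 and 3 in any library.

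Total estimated counts were 2614396 to 16312004 a library. Of the 11 libraries, 5 lay under 5000000 counts and are called shallow here (Dirty_VM replicates 1 and 2, Dirty_TN replicate 2, Clean_VM replicate 1 and Clean_TN replicate 3) while the 6 others are called deep, so every group held both kinds. Levels are given as CPM, the counts of a row in each 1000000 counts of a library, on totals scaled by TMM. This method gives each library a scaling factor, on the assumption that most rows do not differ between libraries. With a floor of 3 counts, a count of 0 in a library leaves room for at most 0.186 to 1.157 CPM, depending on its depth. Such floors, and the intervals given below, cover counting error only. The T lymphocyte markers were abundant, with a summed level of 86890 to 101900 CPM in Dirty_VM, 76130 to 142000 in Dirty_TN, 84190 to 110700 in Clean_VM and 138900 to 147000 in Clean_TN. In bulk samples such as these, fewer cells of a type and less RNA per cell cannot be told apart.

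The near identity of the 5p members showed in the counts. Both rows ended in 0.5 in Dirty_TN replicate 3, Clean_VM replicate 2 and Clean_TN replicate 3, and in no other of the 11 libraries. No other row of the table was fractional in exactly those 3 libraries. Reads divided evenly between miR-10a-5p and miR-10b-5p leave such paired fractions, and the labels do not record how reads that fit several miRNAs were counted. An even number of divided reads leaves no fraction, so their number in each library is unknown. The values of each member are uncertain to that extent, and the sum of both is also given.

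miR-10a-5p, the arm that acts as the guide strand of mir-10a, was in the middle range of the libraries, at rank 132 to 155 by count in VM libraries and rank 170 to 189 in TN libraries. It had 77.6, 73.1 and 69.8 CPM in Dirty_VM, against 47.0, 42.1 and 42.1 CPM in Dirty_TN. It had 84.0, 108 and 98.7 CPM in Clean_VM, against 27.9 and 31.9 CPM in Clean_TN. Every VM library lay above every TN library. The values came from 178 to 1162 estimated counts in the VM libraries and from 106.5 to 517.5 in the TN libraries.

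The group means of miR-10a-5p were 73.5 ± 3.94 CPM in Dirty_VM (SD, n = 3), 43.7 ± 2.85 in Dirty_TN (n = 3), 97.0 ± 12.2 in Clean_VM (n = 3) and 29.9 ± 2.81 in Clean_TN (n = 2). From the highest level to the lowest the order was Clean_VM, Dirty_VM, Dirty_TN and Clean_TN, with no overlap between neighbours. The means of neighbours differed by 1.32, 1.68 and 1.46 times. Of the 545 rows, miR-10a-5p was the only one (0.183%) with this order and no overlap, which is a description of the member and not a test. Under library totals in place of TMM, Dirty_VM (68.7 to 85.1 CPM) and Clean_VM (76.5 to 105 CPM) overlapped.

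**Figure D1:**
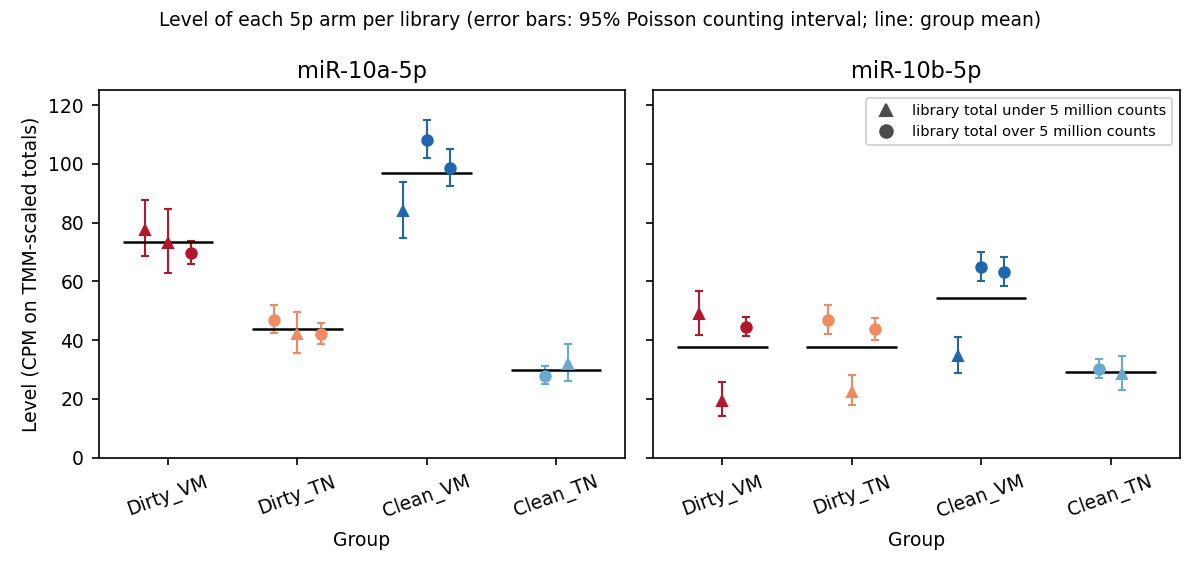
Level of miR-10a-5p (left) and miR-10b-5p (right) in CPM on TMM-scaled totals, 1 point a library, for Dirty_VM, Dirty_TN, Clean_VM and Clean_TN, with triangles for shallow and circles for deep libraries, error bars for the 95% Poisson counting interval and lines for the group means. miR-10a-5p separates into 4 levels, with means from 97.0 CPM in Clean_VM to 29.9 CPM in Clean_TN. The libraries of miR-10b-5p overlap between groups that are neighbours in the order of their means, while Clean_VM and Clean_TN do not overlap.

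The comparison of VM with TN cells asked which miRNAs differ between the subsets. For miR-10a-5p the difference on the log2 scale was 1.22 ± 0.14 averaged over dirty and clean mice (SE, edgeR), 0.75 ± 0.18 in dirty mice and 1.70 ± 0.21 in clean mice. This contrast chose the members, so nothing is read from it. As background, 23.7% of the rows passed the averaged contrast at an adjusted p under 0.05, 11.4% as higher and 12.3% as lower in VM. In dirty mice 6.24% of the rows passed as higher, and in clean mice 9.72% did, of 17.4% that passed in either direction. VM libraries lay wholly above TN libraries in 16.9% of the rows in dirty mice, in 28.3% in clean mice and in 7.52% in both.

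Some markers of other cell types were higher in VM than in TN cells in the same libraries. The endothelial pair miR-126a-3p and miR-126a-5p summed to 29.6 to 53.0 CPM in Dirty_VM against 15.3 to 29.7 in Dirty_TN, and to 21.7 to 47.7 in Clean_VM against 18.4 to 19.3 in Clean_TN. The 5 stromal markers summed to 75.6 to 109 CPM in Dirty_VM against 48.7 to 72.2 in Dirty_TN, and to 62.8 to 104.5 in Clean_VM against 39.8 to 49.5 in Clean_TN. Most of that sum was miR-143-3p, with a VM minus TN difference of 0.80 on the log2 scale, while miR-214-3p had -0.27, and in clean mice miR-199a-3p had -0.33 and miR-145a-5p -0.65. The 4 erythroid markers summed to 120 to 198.5 CPM in Dirty_VM against 69.2 to 147 in Dirty_TN, and to 129 to 260.1 in Clean_VM against 59.6 to 76.5 in Clean_TN. Most of that sum was miR-486a-5p and miR-486b-5p, with averaged differences of 1.14 and 1.17, while miR-451a had 0.27 (adjusted p = 0.638, edgeR). The 6 epithelial markers summed to 1757 to 2201 CPM in Dirty_VM against 1285 to 1780 in Dirty_TN. In clean mice they summed to 1516 to 1863 in Clean_VM against 1235 to 1323 in Clean_TN. Most of that sum was miR-200b-3p, with 0.35 (adjusted p = 0.134, edgeR). The 2 myeloid markers summed to 1.64 to 2.975 CPM in Dirty_VM against 0.90 to 2.60 in Dirty_TN. In clean mice they summed to 0.268 to 3.61 in Clean_VM against 1.205 to 1.275 in Clean_TN. In the averaged contrast 1 of 2 tested endothelial and 1 of 4 stromal markers were higher in VM. So were 2 of 3 erythroid and 2 of 6 epithelial markers, and none of these markers was lower. The single tested myeloid marker, miR-223-3p, did not pass, and of the 5 T lymphocyte markers 2 were lower in VM and none higher. Of all rows, 11.4% were higher and 12.3% lower. In dirty mice 1 of 6 epithelial markers and none of the endothelial, stromal or erythroid markers passed as higher, where 6.24% of all rows did. In clean mice 1 stromal, 2 erythroid and 1 epithelial marker passed as higher and no endothelial one, where 9.72% of all rows did. The erythroid miR-144-3p, the stromal miR-199a-5p and the myeloid miR-223-5p did not pass the filter, with highest counts of 7, 4 and 9 in any library. Their part in the level of miR-10a-5p was not tested.

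miR-10b-5p, which differs from miR-10a-5p outside the seed, had 48.8, 19.3 and 44.6 CPM in Dirty_VM, against 46.8, 22.5 and 43.7 CPM in Dirty_TN. It had 34.6, 64.9 and 63.2 CPM in Clean_VM, against 30.2 and 28.3 CPM in Clean_TN. VM and TN libraries overlapped in dirty mice and did not overlap in clean mice. Under library totals they overlapped in clean mice too, with Clean_VM replicate 1 at 31.5 CPM against Clean_TN replicate 2 at 34.1 CPM. The lowest value, in Dirty_VM replicate 2, rested on 47 counts, with a 95% Poisson interval of 14.2 to 25.7 CPM.

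The group means of miR-10b-5p were 37.6 ± 15.9 CPM in Dirty_VM (SD, n = 3), 37.7 ± 13.2 in Dirty_TN (n = 3), 54.2 ± 17.0 in Clean_VM (n = 3) and 29.3 ± 1.36 in Clean_TN (n = 2). Clean_VM was highest and Clean_TN lowest, and each group overlapped its neighbours in that order. The difference between VM and TN cells on the log2 scale was 0.45 ± 0.27 averaged over the environments (SE, edgeR), -0.001 ± 0.363 in dirty mice and 0.89 ± 0.42 in clean mice, given without a test.

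The levels of miR-10b-5p differed with the depth of the libraries, and in dirty mice also with the replicate number. The median was 28.3 CPM (19.3 to 48.8) in the 5 shallow libraries and 45.7 CPM (30.2 to 64.9) in the 6 deep ones. Dirty_VM replicate 1, a shallow library, was the highest of its group. For miR-10a-5p these medians were 73.1 CPM (31.9 to 84.0) and 58.4 CPM (27.9 to 108). Within the shallow libraries the difference of miR-10b-5p between VM and TN cells in clean mice was 0.06 on the log2 scale, against 0.89 in all libraries. In dirty mice the level of miR-10b-5p over replicates 1, 2 and 3 was 48.8, 19.3 and 44.6 CPM in Dirty_VM. In Dirty_TN it was 46.8, 22.5 and 43.7 CPM. Replicate 2 was shallow in both groups, and replicate 1 in Dirty_VM only. The part of depth or of the replicate number in the level of miR-10b-5p was not tested.

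The comparison of dirty with clean mice was not used to choose the members and was tested over all 545 rows. Averaged over the subsets, miR-10a-5p had a log2 difference of 0.08 ± 0.14 between dirty and clean mice (SE, edgeR quasi-likelihood, adjusted p = 0.959). miR-10b-5p had one of -0.08 ± 0.27 (adjusted p = 0.99, edgeR). Neither passed, and edgeR called 0% of all rows in this contrast. At an unadjusted p under 0.05 it held 28 rows, DESeq2 called 1 and limma-voom 1.

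Within VM cells, miR-10a-5p was at 69.8 to 77.6 CPM in Dirty_VM against 84.0 to 108 CPM in Clean_VM. The log2 difference was -0.40 ± 0.18 (SE), with an unadjusted p of 0.0433 and an adjusted p of 0.316 in edgeR, so it did not pass. It was -0.67 without Clean_VM replicate 1, -0.26 without Clean_VM replicate 2 and -0.12 in the shallow libraries, against -0.68 in the deep ones. Dirty_VM libraries lay wholly below Clean_VM libraries on TMM-scaled totals, as they did in 8.99% of the rows, with 21.1% not overlapping in either direction. miR-10b-5p overlapped between these groups, with a log2 difference of -0.52 ± 0.36 (adjusted p = 0.533, edgeR). That value was -0.94 without Clean_VM replicate 1, -0.91 without Dirty_VM replicate 1, -0.30 without Clean_VM replicate 3, -0.32 without Clean_VM replicate 2 and 0.05 in the shallow libraries. edgeR called 0% of all rows in this contrast, where 81 rows had an unadjusted p under 0.05, DESeq2 called 14 and limma-voom 1.

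Within TN cells the direction of miR-10a-5p was the opposite, at 42.1 to 47.0 CPM in Dirty_TN against 27.9 to 31.9 CPM in Clean_TN. The log2 difference was 0.55 ± 0.21 (SE), with an unadjusted p of 0.019 and an adjusted p of 0.559 in edgeR, and it did not pass either. It was 0.36 without Dirty_TN replicate 3 and 0.22 in the shallow libraries. Dirty_TN libraries lay wholly above Clean_TN libraries, as in 14.3% of the rows, with 23.3% not overlapping in either direction. miR-10b-5p overlapped, with a log2 difference of 0.37 ± 0.41 (adjusted p = 0.824, edgeR). That value was 0.03 without Dirty_TN replicate 3, 0.09 without Dirty_TN replicate 1, 0.22 without Clean_TN replicate 3 or Dirty_VM replicate 3, and -0.51 in the shallow libraries. edgeR called 0% of all rows in this contrast, where 38 rows had an unadjusted p under 0.05, DESeq2 called 3 and limma-voom 0.

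Whether the subset difference itself differed between the environments was tested as an interaction, the VM minus TN difference in dirty mice less that in clean mice. Both differences belong to the contrast that chose the members, so the interaction p-values of the members are not independent of that choice. For miR-10a-5p the interaction was -0.95 ± 0.27 on the log2 scale (SE), with an unadjusted p of 0.00398 and an adjusted p of 0.114 in edgeR. In edgeR it did not pass, and in limma-voom the adjusted p was 0.0977. In DESeq2 it was -0.95 ± 0.30 with an adjusted p of 0.0359 and passed. Of the 545 rows, 19 had an interaction p at or below that of miR-10a-5p, itself included, and 167 had a larger absolute interaction. The arrangement behind it, dirty wholly above clean in TN cells and wholly below it in VM cells, was found in 11 rows, 2.02% of those tested. With the reverse arrangement counted as well, the share was 4.77%. miR-10b-5p had an interaction of -0.89 ± 0.55 (adjusted p = 0.402, edgeR), and of -0.58 without Dirty_TN replicate 3. edgeR called 0% of all rows for the interaction, 93 rows had an unadjusted p under 0.05, DESeq2 called 25 and limma-voom 0. Without Dirty_TN replicate 3 edgeR called 73 rows, with miR-10a-5p at -0.80 (adjusted p = 0.0961) and not among them.

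The interaction was also computed by depth, where each class left a single library in some groups. The values of the classes were not tested against each other. In the shallow libraries that of miR-10a-5p was -0.34, and in the deep ones it was -1.25. With the depth class as a term in the fit it was -0.94, against -0.95 without the term. For miR-10b-5p the values were of opposite sign, 0.56 over shallow and -1.12 over deep libraries, and -0.49 with the depth class as a term, against -0.89 without it. Of the 3 tested erythroid markers, miR-486a-5p and miR-486b-5p had interactions of -1.49 and -1.48 (adjusted p = 0.21 and 0.185, edgeR). The third, miR-451a, had 0.20 (adjusted p = 0.955, edgeR). The part of miR-486a-5p and miR-486b-5p in the interaction of miR-10a-5p was not tested.

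**Figure D2:**
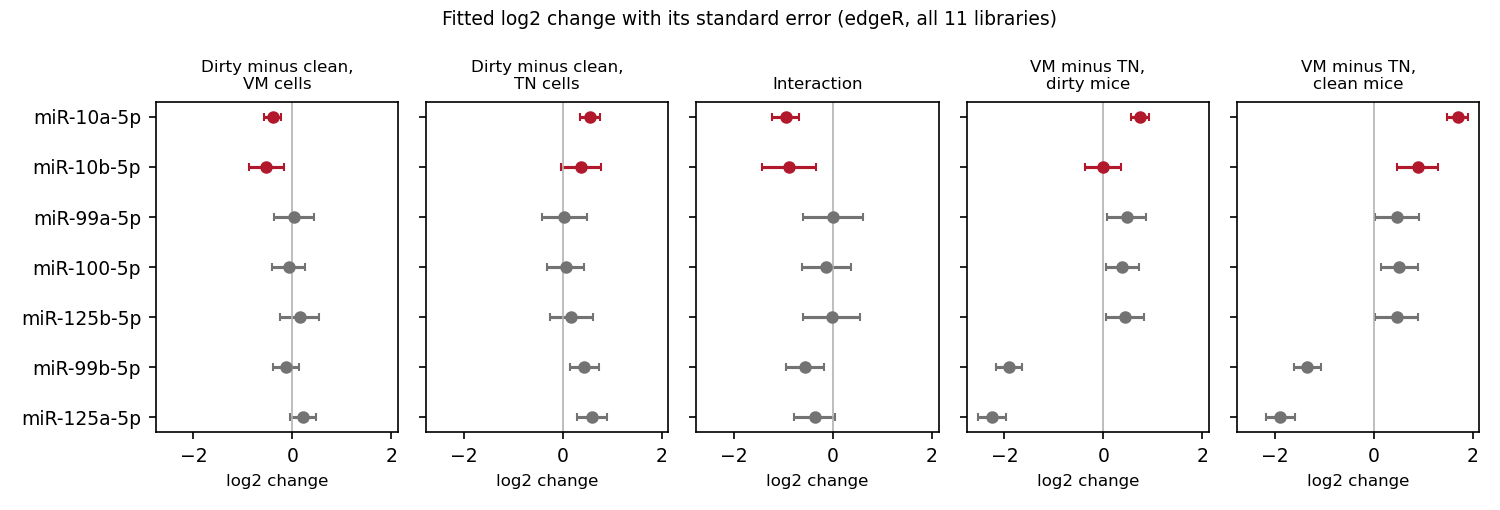
Fitted log2 change with its SE (edgeR, horizontal axes) for miR-10a-5p and miR-10b-5p in red and the 5 other 5p miRNAs of the wider hairpin family in grey, with a panel each for dirty minus clean in VM and in TN cells, the interaction, and VM minus TN in dirty and in clean mice. miR-10a-5p lies at -0.40 in VM cells and 0.55 in TN cells for dirty minus clean, and its VM minus TN difference is 0.75 in dirty and 1.70 in clean mice.

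Both 5p members share a seed, and their summed level does not depend on how reads were divided between them. The sum was 126, 92.4 and 114 CPM in Dirty_VM, against 93.8, 64.6 and 85.8 CPM in Dirty_TN. It was 119, 173 and 162 CPM in Clean_VM, against 58.2 and 60.2 CPM in Clean_TN. In dirty mice the subsets overlapped, by Dirty_VM replicate 2 and Dirty_TN replicate 1, and in clean mice they did not. When both rows were summed before the fit, the dirty minus clean difference was -0.58 ± 0.23 in VM cells (SE, adjusted p = 0.264, edgeR) and 0.39 ± 0.26 in TN cells (adjusted p = 0.737, edgeR). The interaction of the summed row was -0.96 ± 0.34 (adjusted p = 0.184, edgeR). None passed in edgeR, as for either row alone in edgeR.

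The ratio of miR-10a-5p to miR-10b-5p within a library does not depend on the scaling between libraries. It was 1.59, 3.79 and 1.57 in Dirty_VM, against 1.00, 1.87 and 0.963 in Dirty_TN. It was 2.43, 1.67 and 1.56 in Clean_VM, against 0.925 and 1.13 in Clean_TN. miR-10a-5p therefore exceeded miR-10b-5p in all 6 VM libraries, while the ratio of the TN libraries lay near 1 in all but Dirty_TN replicate 2. The highest ratio of each group was in its library with the fewest counts of miR-10b-5p. On the log2 scale the means were 1.08 ± 0.73 in Dirty_VM, 0.29 ± 0.54 in Dirty_TN, 0.89 ± 0.34 in Clean_VM and 0.03 ± 0.20 in Clean_TN (SD over libraries).

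Between dirty and clean mice the log2 ratio of miR-10a-5p to miR-10b-5p differed by 0.22, which was within the spread between libraries (two-sided exact permutation test within subsets, p = 0.45, adjusted p = 0.867 over 4 tests of the ratios, interactions included). The interaction of this ratio was -0.06, given without its p-value, since it was chosen after the values had been seen. The p-values of both interactions enter the adjustment only. The VM minus TN difference of the ratio was 0.79 in dirty mice and 0.86 in clean mice, given without a test since the subset contrast chose the members. The smallest p that the 200 permutations can give is 0.005.

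**Figure D3:**
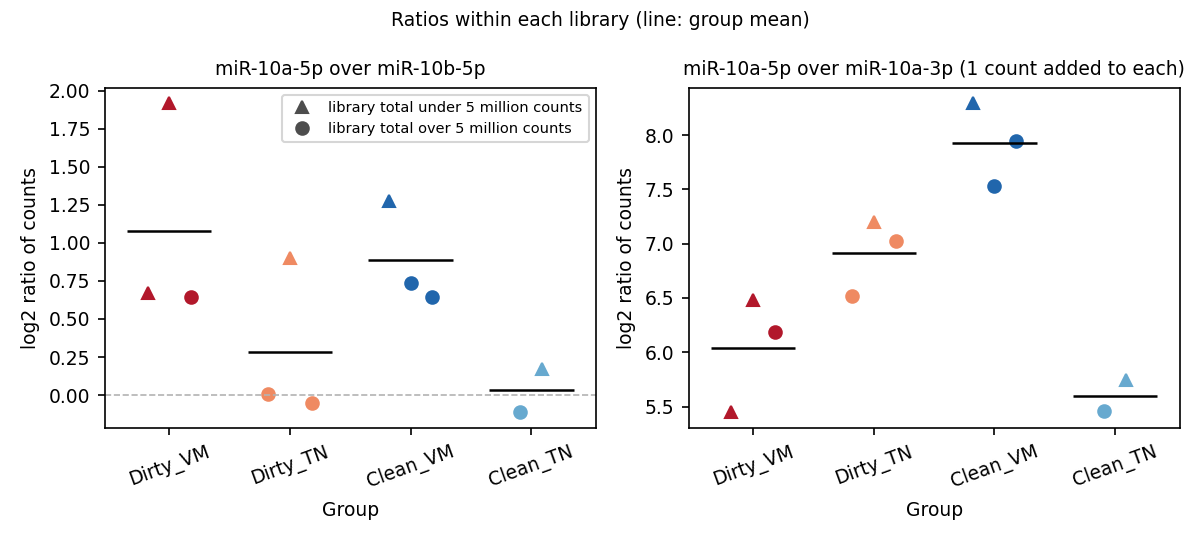
Log2 ratio of the counts of miR-10a-5p to miR-10b-5p (left) and to miR-10a-3p (right, 1 count added to each arm), 1 point a library, for Dirty_VM, Dirty_TN, Clean_VM and Clean_TN, with triangles for shallow and circles for deep libraries and lines for the group means. The ratio of the 5p members averages 1.08 in Dirty_VM against 0.29 in Dirty_TN and 0.89 in Clean_VM against 0.03 in Clean_TN, and the ratio of the arms is highest in Clean_VM (7.92) and lowest in Clean_TN (5.60).

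miR-10a-3p, the opposite arm of the mir-10a hairpin and usually degraded, was near the detection limit. It had 5, 1 and 15 counts in Dirty_VM, against 3, 0 and 3 counts in Dirty_TN. It had 0, 5 and 3 counts in Clean_VM, against 6 and 1 counts in Clean_TN. The count was above 3 in 4 of the 11 libraries, so no fold change of this arm is given.

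The 3p arm held a small share of the hairpin's reads in every group. It took 1.29% in Dirty_VM (21 counts beside 1601 of the 5p arm, exact 95% interval 0.803 to 1.97%), against 0.579% in Dirty_TN (0.213 to 1.26%). It took 0.331% in Clean_VM (0.143 to 0.652%), against 1.67% in Clean_TN (0.673 to 3.4%). Over all libraries the share was 0.765% for mir-10a (0.552 to 1.03%), from 42 counts beside 5451. For mir-10b it was 0.50% (0.301 to 0.779%), from 19 counts beside 3784. The 5p arm was thus the dominant product of both hairpins in these cells.

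Per library, the log2 ratio of miR-10a-5p to miR-10a-3p, with 1 count added to each, was 5.45, 6.48 and 6.18 in Dirty_VM, against 6.52, 7.20 and 7.02 in Dirty_TN. It was 8.29, 7.53 and 7.94 in Clean_VM, against 5.46 and 5.74 in Clean_TN. Dirty and clean libraries did not overlap within either subset, with dirty below clean in VM cells and above it in TN cells. The arm ratios of other hairpins were not computed, so no share of hairpins with this arrangement is given. Averaged over the subsets the ratio of the arms differed by -0.29 between dirty and clean mice (p = 0.65 by exact permutation, two-sided, with an adjusted p of 0.867). Its interaction was -3.20, given as a description, since the values had been seen before it was chosen. It rests on 0 to 15 counts of the 3p arm a library, and where that arm has 0 counts the ratio is set by the added count.

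The wider hairpin family was described for comparison. It was chosen with earlier results of these data known, so its subset p-values are a description. miR-99a-5p, miR-100-5p and miR-125b-5p come from clusters with let-7 genes, and miR-99b-5p and miR-125a-5p share a cluster with let-7e. In the averaged comparison of VM with TN cells none of the 5 was higher at the threshold, as 11.4% of all rows were, and 2 were lower, as 12.3% of all rows were, with a median log2 difference of 0.45 against 0.09 for all rows. miR-99b-5p fell by 1.62 ± 0.19 on the log2 scale (SE, adjusted p = 3.8e-05, edgeR) and miR-125a-5p fell by 2.07 ± 0.20 (adjusted p = 7.8e-06, edgeR). miR-99a-5p had 0.47 ± 0.30 (adjusted p = 0.29), miR-100-5p 0.45 ± 0.25 (adjusted p = 0.221) and miR-125b-5p 0.45 ± 0.29 (adjusted p = 0.291), all by edgeR. These values lie beside the 0.45 of miR-10b-5p. Between dirty and clean mice 0 of the 5 passed in either subset, on average or for the interaction.

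miR-99a-5p, miR-100-5p and miR-125b-5p had lower medians in the shallow libraries, as miR-10b-5p did, although each was high in Dirty_VM replicate 1, which is shallow. Their medians were 44.5, 35.5 and 18.5 CPM in the 5 shallow libraries and 90.8, 50.2 and 33.9 CPM in the 6 deep ones.

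**Figure D4:**
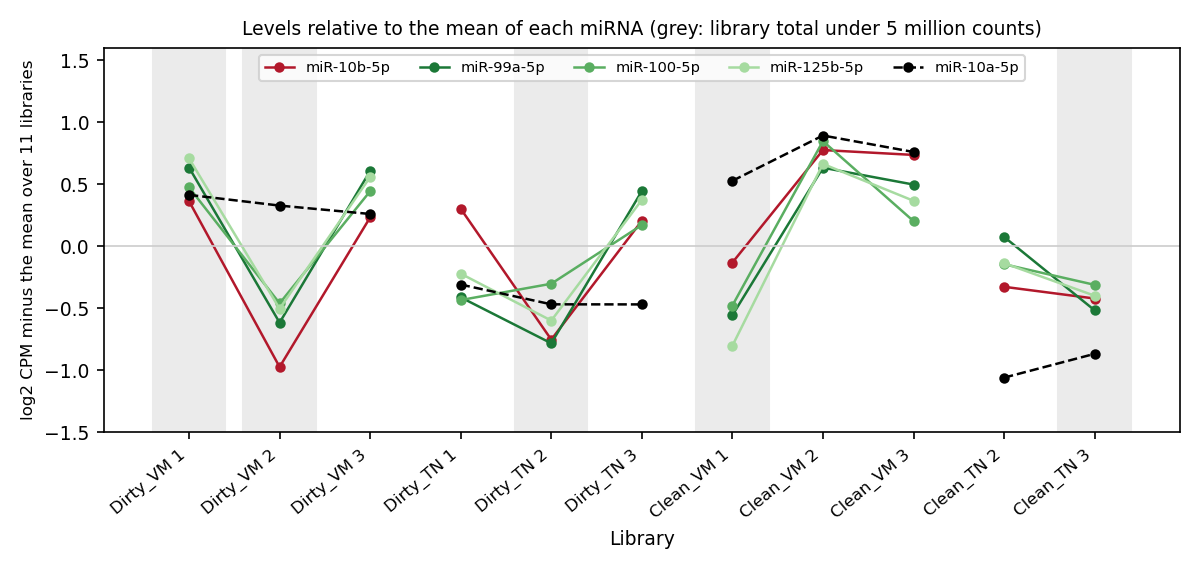
Level of miR-10b-5p, miR-99a-5p, miR-100-5p, miR-125b-5p and miR-10a-5p in each library, as log2 CPM minus the mean of that miRNA over the 11 libraries, with grey bands for the shallow libraries and lines that join the libraries of a group only to guide the eye. The first 4 miRNAs are low together in Dirty_VM replicate 2, at 19.3 CPM for miR-10b-5p, where miR-10a-5p, drawn dashed, is not.

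The rows most like each 5p member were found by the mean absolute difference in log2 CPM, each row centred on its own mean, over the 11 libraries and among 261 rows. These libraries share their depth and their scaling, so likeness is a description. Nearest to miR-10a-5p were miR-1843a-3p (0.20), miR-1843a-5p (0.23), miR-143-3p (0.24), miR-664-5p (0.25) and miR-149-5p (0.26), where the median over all rows was 0.603. miR-1843a-3p averaged 167 ± 18.8 CPM in Dirty_VM, 110 ± 41.9 in Dirty_TN, 238 ± 37.3 in Clean_VM and 78.2 ± 1.49 in Clean_TN (SD). miR-149-5p averaged 279 ± 55.2 CPM in Dirty_VM, 122 ± 7.19 in Dirty_TN, 277 ± 16.0 in Clean_VM and 123 ± 5.28 in Clean_TN (SD). miR-1843a-3p follows the order of miR-10a-5p over the group means, and miR-149-5p separates the subsets with little difference between the environments. miR-664-5p follows that order too. It averaged 42.3 ± 10.8 CPM in Clean_VM, 23.1 ± 2.6 in Dirty_VM, 19.1 ± 4.6 in Dirty_TN and 11.8 ± 1.8 in Clean_TN (SD). Its dirty libraries lay wholly below clean ones in VM cells and wholly above them in TN cells. Its interaction was -1.55 ± 0.39 (SE, adjusted p = 0.0952, edgeR). miR-143-3p and miR-1843a-5p had their highest mean in Dirty_VM.

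Nearest to miR-10b-5p were miR-122-5p (0.20), the abundant miRNA of hepatocytes, miR-409-3p (0.29), miR-125b-5p, miR-100-5p and miR-99a-5p (each 0.30), where the median over all rows was 0.557. miR-122-5p averaged 1865 ± 617 CPM in Dirty_VM, 1477 ± 486 in Dirty_TN, 2176 ± 837 in Clean_VM and 961 ± 156 in Clean_TN (SD). Neither 5p member was among the 5 rows nearest to the other. With library totals in place of TMM the same 5 of 5 rows were nearest to each.

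The other miRNAs described in CD4+ regulatory T cells were taken as a list, since miR-10a is best known there among T cells. The sort excluded CD4+ cells. This list was chosen with earlier results of these data known, so its subset values and p-values are a description and not a test. Of its 6 members, 5 were higher in VM than in TN cells in the averaged comparison, with a median log2 difference of 0.99 against 0.09 for all rows. These were miR-21a-5p (1.88 ± 0.13), miR-31-5p (1.45 ± 0.35), miR-146a-5p (1.06 ± 0.16), miR-182-5p (0.91 ± 0.23) and miR-155-5p (0.60 ± 0.15, log2 ± SE in edgeR, adjusted p of 0.0118 or lower). Of the 6, 2 passed as higher in VM cells in dirty mice and 5 in clean mice, where 6.24% and 9.72% of all rows did, and 11.4% in the averaged comparison. Most of these miRNAs also respond to T cell activation. Between dirty and clean mice 0 of the 6 passed in either subset, on average or for the interaction, as for miR-10a-5p in edgeR.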

How the data were processed

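The authors deposited expected counts, that is, estimated counts per mature miRNA and hairpin, with 88.7% of values whole. The build is mm10, per the submitters' processing notes. Aligner, counter and annotation are not given in the sources used here. How reads that fit several miRNAs were counted is not recorded. Of 2128 rows, 120 identical repeats (0.89% of counts) were removed. Estimated counts were rounded, rows filtered with filterByExpr (545 kept, 99.99% of counts), scaled by TMM and fitted over all 11 libraries with edgeR 4.0.16 (quasi-likelihood, robust) in R 4.3.3, 1 mean per group. SE is the absolute log2 change over the square root of F. P-values were adjusted by Benjamini-Hochberg over 545 rows, threshold 0.05. Ratios were tested by exact permutation of environment labels within subsets (scipy 1.17.1). The fit was tested on simulated counts. Alternatives were DESeq2 1.42.0, limma-voom 3.58.1, other scalings, filters, depth classes, a replicate block and leaving out each library. Totals of 2614396 to 16312004 set the precision. The members and lists were chosen with earlier results of these data known. Named rows were the members, the miRNA lists and the 5 rows nearest to each 5p member.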

Additional observations from a re-analysis of the deposited data

Results flagged for a closer look

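The VM minus TN difference of miR-10a-5p was 0.75 in dirty and 1.70 in clean mice. The interaction was -0.95 on the log2 scale, with an adjusted p of 0.114 in edgeR and 0.0359 in DESeq2, so whether it passed depended on the tool. It is listed because the test of the difference between the environments had an unadjusted p of 0.00398 (edgeR). The subset contrast chose the members, so this p is not independent of that choice. On TMM-scaled totals dirty lay wholly below clean in VM cells and wholly above it in TN cells, as in 2.02% of the rows. With the reverse arrangement counted as well the share was 4.77%. Under library totals Dirty_VM and Clean_VM overlapped. Over all alternatives the adjusted p of the interaction ranged from 0.0359 to 0.928.

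The log2 ratio of miR-10a-5p to miR-10a-3p is listed because dirty libraries lay wholly below clean ones in VM cells and wholly above them in TN cells, with an interaction of -3.2. This difference was chosen after the values had been seen, so no p-value of it is given. The difference between dirty and clean mice was -1.89 in VM cells and 1.31 in TN cells. The 3p arm had 3 counts or fewer in 7 of the 11 libraries. The part of its low counts in this difference was not tested. The arm ratios of other hairpins were not computed, so no share of hairpins with this arrangement is given.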

How the results depend on the processing

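Within depth classes and other scalings some values moved. The VM minus TN difference of miR-10a-5p averaged over the environments was 1.00 in the shallow libraries, and 1.09 to 1.27 with each library left out. In dirty mice it was 0.59 in the deep libraries, and 0.64 to 0.81 with each library left out. In clean mice it was 1.17 over shallow and 1.84 over deep libraries, 1.48 under library totals, and 1.45 to 1.84 with each library left out. For miR-10b-5p in the shallow libraries it was 0.62 in dirty and 0.06 in clean mice, and with each library left out -0.30 to 0.25 in dirty and 0.58 to 1.18 in clean mice. The interaction of miR-10a-5p passed in DESeq2 (-0.95) and lay between -1.14 and -0.73 with each library left out. Under library totals it was -0.66 ± 0.32 (SE, adjusted p = 0.332, edgeR). Dirty minus clean of miR-10a-5p was then -0.29 in VM and 0.37 in TN cells. The interaction of the ratio of miR-10a-5p to miR-10a-3p was -3.79 over shallow and -2.86 over deep libraries, and -3.42 to -2.90 with each library left out. With each library left out, dirty minus clean of miR-10a-5p was -0.67 to -0.26 in VM and 0.36 to 0.55 in TN cells, and that of miR-10b-5p -0.94 to -0.30 and 0.03 to 0.54. The averaged dirty minus clean difference of miR-10a-5p changed sign in 8 of 22 alternatives without passing in any. Rows called in all were fewest within a depth class, 35 shallow and 47 deep against 129 between VM and TN cells on average, 17 and 10 against 66 in dirty mice, and 30 and 27 against 95 in clean mice. Without Clean_TN replicate 2 or 3 the last count was 34 or 33, without Clean_VM replicate 3 it was 61, and without Dirty_VM replicate 3 there were 42 in dirty mice, without Dirty_TN replicate 2 44. Without Dirty_TN replicate 3 dirty minus clean had 26 rows in VM and 28 in TN cells, against 0. With no filter these were 16 and 4, and the interaction had 30.

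With the replicate number as a block the interaction of miR-10a-5p was -0.95 (adjusted p = 0.265, edgeR), and the rows called between VM and TN cells in clean mice were 56, against 95. Of the 15 same-numbered pairs, 5 correlated above 0.1 (-0.56 to 0.40). Of the 11 libraries, 1 had its best partner outside its group under its own number, and all 11 had it in their own depth class. These correlations also carry the depth of the libraries, so they cannot decide whether the numbers pair the libraries. The replicate number was also fitted as a block within each environment. The averaged VM minus TN difference of miR-10b-5p was then 0.55 ± 0.16 (SE, edgeR), against 0.45 ± 0.27. That of miR-10a-5p was 1.27 ± 0.15, against 1.22 ± 0.14. miR-10a-3p did not pass the filter on low counts and has no fitted change of its own.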
